A study of Sus scrofa with 15 samples.

Results

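PHYHIPL (ENSSSCG00000039215) and ENSSSCG00000048477 are 2 of the 30476 genes listed in a read count table of piglet testis. Both were chosen by their measured values, because every library from piglets fed sow milk lay above all libraries from formula-fed piglets. Their difference between Sow and formula is therefore described here and was not tested. Tests of these 2 genes were restricted to differences among the formula diets, which the choice did not use.

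The table holds 15 libraries of whole testis at postnatal day 21, 1 per piglet and 3 per diet. All were male Dutch Landrace Duroc piglets that suckled until postnatal day 2, and were then housed singly and fed from bowls until day 21. Sow piglets received sow milk, Milk piglets a formula based on cow's milk, and Soy piglets a soy-based formula. The M + E2 piglets received the cow's milk formula with 17β-estradiol (E2), an estrogen given as the positive control. The M + G piglets received the same formula with genistein, a soy isoflavone, at 84 mg/L. Sow milk was thus the only diet without formula, and estrogen, isoflavone and formula base varied among the rest.

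PHYHIPL encodes phytanoyl-CoA 2-hydroxylase interacting protein like, a relative of PHYHIP. PHYHIP was named as a binding partner of PHYH, the peroxisomal enzyme that starts the alpha-oxidation of phytanic acid. Phytanic acid is a branched-chain fatty acid that derives from chlorophyll and reaches the diet largely through ruminant fat, and its methyl branch blocks ordinary beta-oxidation until 1 carbon has been removed. PHYHIPL is best known as a gene of the brain, and its role in testis is not established. ENSSSCG00000048477 carries no gene symbol, so nothing is said here of its product.

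PHYHIPL lies on chromosome 14 of Sscrofa11.1, from 62525915 to 62630383, as a protein-coding gene of the RefSeq annotation. Counts cover the whole gene and do not separate exons, introns or untranslated parts. The position of ENSSSCG00000048477 was not determined here, so whether it neighbours PHYHIPL is not known from these data.

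Between 6097552 and 9488579 reads per library fell on genes (median 8198038). Of the 105 pairs of libraries, 4 had a Pearson's r below 0.9 on log2 CPM across 15328 genes, and Sow 2 was part of each. The study excluded this library, so the tests use the other 14, and values are given with and without Sow 2. Among the columns, 1 of Sow and 1 of Soy have no replicate number and are called Sow unnumbered and Soy unnumbered. The 9 Sertoli cell markers all passed the filter on low counts, with a summed level of 1878 to 2369 CPM in Sow and 1381 to 3512 CPM in formula libraries. In whole tissue, fewer cells of a type and less RNA per cell cannot be told apart.

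PHYHIPL was read far more often in each Sow library than in any formula library. There were 412 reads in Sow unnumbered, 302 in Sow 2 and 210 in Sow 3. Milk 1, 2 and 3 had 7, 25 and 16 reads, and Soy unnumbered, Soy 2 and Soy 3 had 10, 20 and 14. The M + E2 libraries had 20, 5 and 9 reads, and the M + G libraries 27, 15 and 13. The lowest Sow library had 210 reads where the highest formula library, M + G 1, had 27, and no formula library was without a read.

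Scaled for library size, PHYHIPL reached 55.4 CPM in Sow unnumbered, 44.1 in Sow 2 and 25.2 in Sow 3. Its mean was 41.6 ± 15.3 CPM (SD, n = 3) in Sow, or 40.3 ± 21.4 (n = 2) without Sow 2. The formula groups followed in the order M + G (2.16 ± 1.13 CPM, n = 3), Milk (2.04 ± 1.03), Soy (1.70 ± 0.449) and M + E2 (1.5 ± 1.22). Neighbouring formula groups differed by less than their SDs, and the libraries of all 4 overlapped. The 12 formula libraries ran from 0.639 CPM in M + E2 2 to 3.47 CPM in M + G 1, with a median of 1.58. The Sow mean was 22.5 times the mean of the formula libraries (21.8 times without Sow 2), and between 19.2 times the mean of M + G and 27.8 times that of M + E2. The latter value rested on M + E2 1, without which the M + E2 mean was 0.799 CPM and the ratio was 52.0.

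ENSSSCG00000048477 was also read far more often in Sow than in formula libraries. There were 183 reads in Sow unnumbered, 130 in Sow 2 and 86 in Sow 3. Milk 1, 2 and 3 had 7, 6 and 4 reads, and Soy unnumbered, Soy 2 and Soy 3 had 9, 6 and 5. The M + E2 libraries had 9, 12 and 13, and the M + G libraries 5, 3 and 9. Every Sow library held more reads than any formula library, and the Sow libraries stood in the same order as for PHYHIPL. It had fewer reads than PHYHIPL in most libraries, but more in M + E2 2 and 3 and as many in Milk 1.

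Its mean level was 18.0 ± 7.21 CPM (SD, n = 3) in Sow, or 17.5 ± 10.1 (n = 2) without Sow 2. M + E2 came next with 1.41 ± 0.118 CPM (n = 3), followed by Soy with 0.804 ± 0.332, Milk with 0.759 ± 0.269 and M + G with 0.652 ± 0.344. Soy, Milk and M + G overlapped and differed by less than their SDs. The Sow mean was 19.8 times the mean of the formula libraries (19.3 times without Sow 2), 12.8 times that of M + E2 and 27.5 times that of M + G. At these depths an exact 95% Poisson interval spans 373 to 454 reads for the 412 PHYHIPL reads of Sow unnumbered, but 0.619 to 8.77 reads for the 3 ENSSSCG00000048477 reads of M + G 2. Such intervals cover counting error only.

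**Figure D1:**
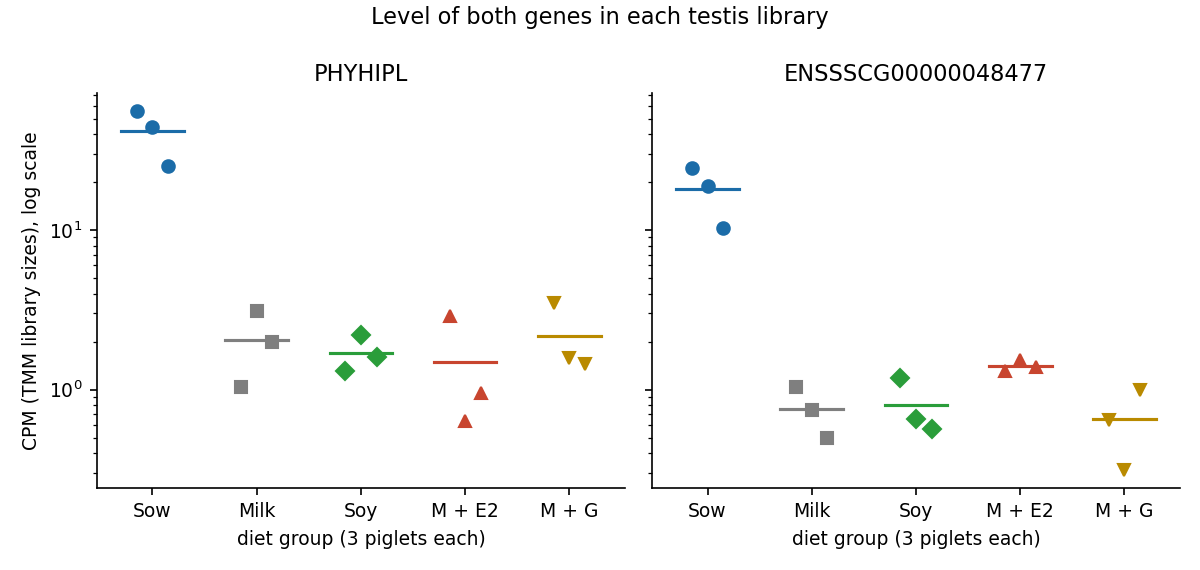
Level of PHYHIPL (left) and ENSSSCG00000048477 (right) in CPM on a log axis, with 1 point per library and a bar at the group mean (n = 3 piglets per diet). The lowest Sow library reached 25.2 CPM for PHYHIPL and 10.3 CPM for ENSSSCG00000048477, above the highest formula libraries at 3.47 and 1.53 CPM.

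Many genes met the rule, but with a far smaller gap. Of 15328 genes kept over the 15 libraries, 1184 (7.72%) had every Sow library above all formula libraries, and 969 (6.32%) had every Sow library below them. The gap was measured as the lowest Sow CPM divided by the highest formula CPM. It was 7.26 for PHYHIPL and 6.72 for ENSSSCG00000048477. Among the other 1182 genes the median gap was 1.08, and 13 genes exceeded 1.5 but 0 exceeded 2.

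The next genes in this order were S100A12, a calcium-binding protein of neutrophils, with a gap of 1.97, CDX4, a homeobox gene, with 1.88, and TGM5, a transglutaminase, with 1.80. CDX4 had at most 6 and TGM5 at most 7 reads in a formula library, so their gaps rest on few reads. At the edge of the rule RGS5 (lowest Sow library 219.3 CPM, highest formula library 219.2) and EFCAB7 (17.622 and 17.618 CPM) lay just inside. ENSSSCG00000036096 (7.93663 and 7.93666 CPM) and PET100 (45.884 and 45.887 CPM) lay just outside. PHYHIPL was the first and ENSSSCG00000048477 the second gene also with DESeq2's size factors, with total counts and without Sow 2. Without M + E2 2 their order was exchanged. With no filter on low counts they held ranks 5 and 6.

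**Figure D2:**
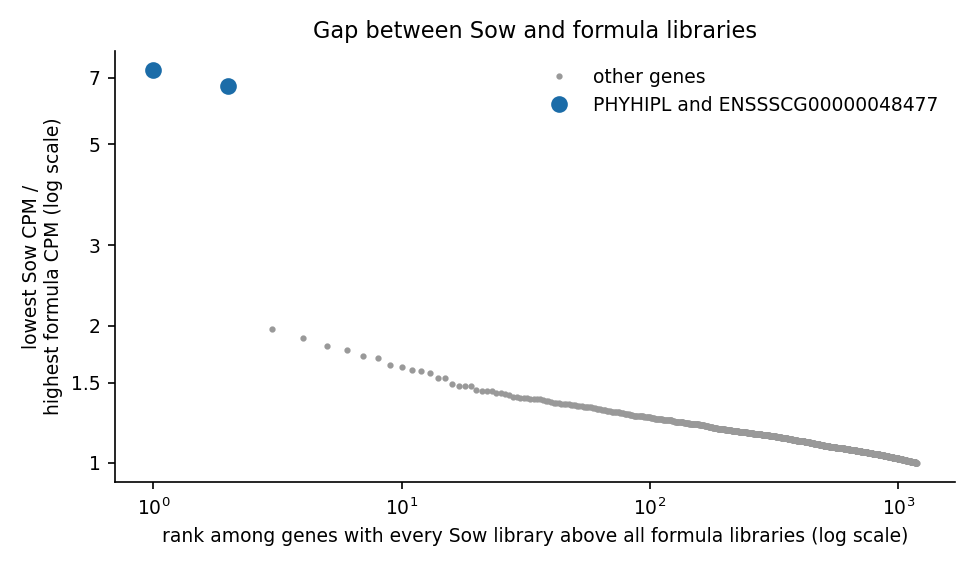
Lowest Sow CPM divided by highest formula CPM (log axis) against rank (log axis) for the 1184 genes with every Sow library above all formula libraries. PHYHIPL (7.26) and ENSSSCG00000048477 (6.72) stand apart from S100A12 (1.97) and the genes that follow.

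The reads of both genes kept a nearly constant proportion in Sow. A ratio of reads within a library does not depend on its depth, but reads were not divided by gene length, so it is no ratio of transcript numbers. PHYHIPL had 2.25 reads for each read of ENSSSCG00000048477 in Sow unnumbered (exact binomial 95% interval 1.89 to 2.69), 2.32 in Sow 2 (1.89 to 2.88) and 2.44 in Sow 3 (1.89 to 3.18). Over these libraries PHYHIPL itself varied 2.20-fold and ENSSSCG00000048477 2.39-fold, so both moved together. PHYHIPL made up 69.2%, 69.9% and 70.9% of the reads of both genes.

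In the formula libraries the ratio ranged more widely. It was 1.00, 4.17 and 4.0 in Milk 1, 2 and 3, and 1.11, 3.33 and 2.80 in Soy unnumbered, Soy 2 and Soy 3. It was 2.22, 0.417 and 0.692 in the M + E2 libraries and 5.40, 5.0 and 1.44 in the M + G libraries. Of the 12 formula libraries 6 lay above and 6 below all Sow libraries. The intervals were wide, from 0.115 to 1.27 in M + E2 2 and from 2.05 to 18.0 in M + G 1.

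Summed over the 12 formula libraries the ratio was 2.06 (1.59 to 2.68), from 181 and 88 reads, against 2.32 (2.06 to 2.61) in Sow, from 924 and 399 reads. These intervals overlap. The summed ratio was 3.24 (1.85 to 5.95) in M + G, 2.82 (1.59 to 5.24) in Milk and 2.20 (1.27 to 3.94) in Soy. In M + E2 it was 1.00 (0.603 to 1.66), from 34 reads of each gene, and all 3 M + E2 libraries lay below every Sow library. M + E2 1 did so only just, at 2.22 (0.967 to 5.54) against 2.25 in Sow unnumbered. The group values depended on single libraries. The geometric mean of the ratios was 0.862 in M + E2 but 0.537 without M + E2 1, 2.55 in Milk but 4.08 without Milk 1, and 3.39 in M + G but 5.20 without M + G 3. The sums treat reads as independent and leave out the spread between piglets. Over the 12 formula libraries diet accounted for 40.8% of the sum of squares of the log2 ratio (exact permutation test over the 15400 divisions into 4 groups of 3, one-sided, p = 0.212). A difference in ratio among the formula diets was thus not detectable with these libraries.

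**Figure D3:**
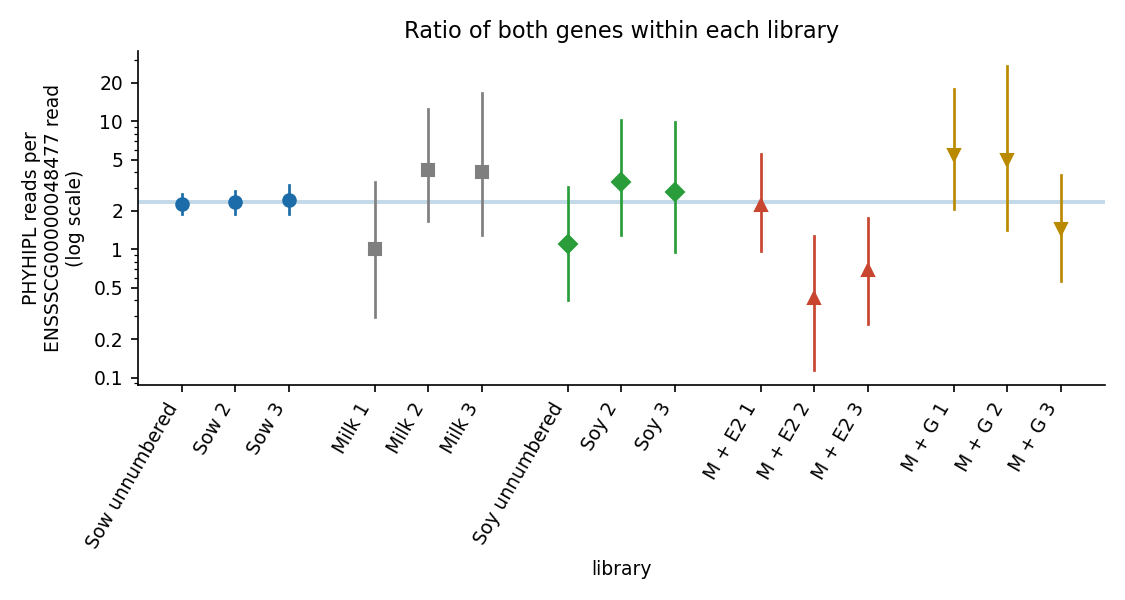
PHYHIPL reads per ENSSSCG00000048477 read in each library (log axis), with exact binomial 95% intervals as lines and the range of the 3 Sow libraries (2.25 to 2.44) as a band. Formula libraries run from 0.417 to 5.40, with 6 above and 6 below the band.

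Both genes were also set against each other across libraries. Over the 15 libraries Pearson's r was 0.872 on log2 CPM and Spearman's rho 0.218, and these points share diet, library and depth. Over the 12 formula libraries alone r was −0.447 and rho −0.531. With 3 to 27 reads per gene and library, this weak negative relation is given as a description only.

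The spread over formula libraries was close to that of counting for ENSSSCG00000048477. The variance of its reads around the values set by library size was 1.44 times that of counting alone over the 12 formula libraries, and 3.48 times for PHYHIPL. Relative to the mean, the SD of the CPM was 36.8% over the 3 Sow libraries and 48.7% over the 12 formula libraries for PHYHIPL, and 40.1% and 43.0% for ENSSSCG00000048477. The relative spread was thus no larger in Sow for either gene, but it includes counting error. Counting error weighs more at the few reads of the formula libraries. Over the 3 Sow libraries the variance was 45.4 times that of counting for PHYHIPL and 23.4 times for ENSSSCG00000048477. The spread beyond counting was not compared between Sow and formula.

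**Figure D4:**
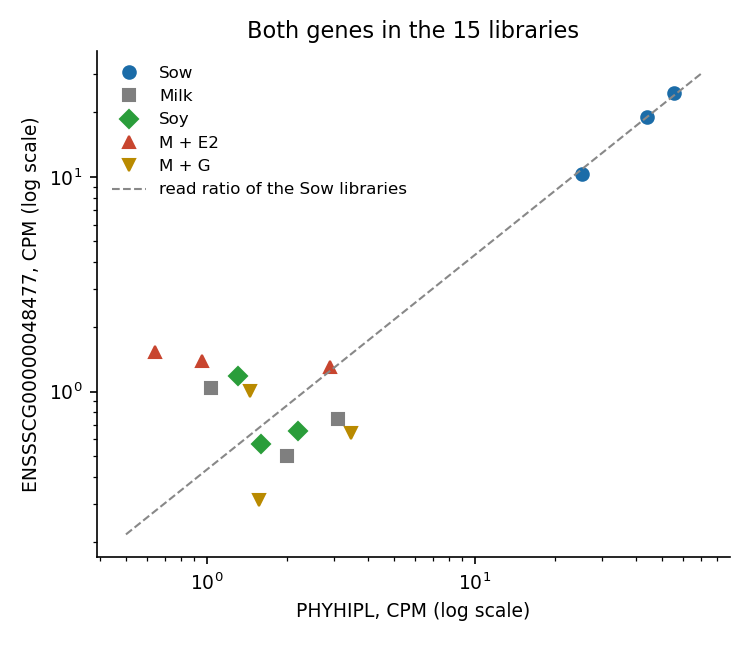
CPM of ENSSSCG00000048477 against CPM of PHYHIPL in the 15 libraries (both axes log), with a dashed line at the summed read ratio of Sow (2.32). The 3 Sow libraries follow the line at 25.2 to 55.4 CPM of PHYHIPL, while the 12 formula libraries scatter at or below 3.47 CPM on both sides of it.

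Whether estrogen, genistein or the soy base changed the low level of either gene was tested among the formula groups with edgeR's quasi-likelihood test, adjusted over 15634 genes. Over the 4 formula groups the adjusted p was 0.913 for PHYHIPL and 0.692 for ENSSSCG00000048477, while 0.0192% of all genes passed 0.05. A gene counted as called between a pair of groups when its level differed at least 2-fold and its adjusted p was at most 0.05. Neither PHYHIPL nor ENSSSCG00000048477 was called in any of the 4 pairs tested.

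Relative to Milk, PHYHIPL in M + E2 had a log2 fold change of −0.53 (95% interval −1.80 to 0.75, adjusted p = 0.625), a fold of 0.694 with an interval from 0.287 to 1.68. It was −1.37 without M + E2 1 and −0.12 without Milk 2. ENSSSCG00000048477 in M + E2 had a log2 fold change of 0.87 (−0.22 to 1.96, adjusted p = 0.357), or 1.83-fold with an interval from 0.860 to 3.89. The M + E2 libraries of ENSSSCG00000048477, at 1.3 to 1.53 CPM, lay above all 9 other formula libraries, which reached 1.18 CPM in Soy unnumbered. This was noticed in the values, and the same held for 3.28% of genes. The test called 0 of 15634 genes (0%) between M + E2 and Milk. There were 2772 at an unadjusted p below 0.05, and DESeq2 called 122 and edgeR's exact test 92.

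Genistein added to the milk formula left PHYHIPL with a log2 fold change of 0.05 (−1.16 to 1.26, adjusted p = 0.992) and ENSSSCG00000048477 with −0.20 (−1.39 to 0.99, adjusted p = 0.960) in M + G relative to Milk. The test called 0 genes (0%) in this pair, with 406 at an unadjusted p below 0.05, 2 called by DESeq2 and 2 by the exact test. Soy relative to Milk gave −0.23 (−1.47 to 1.00, adjusted p = 0.999) for PHYHIPL and 0.11 (−1.05 to 1.27, adjusted p = 0.999) for ENSSSCG00000048477. Here the test also called 0 genes (0%), with 381 at an unadjusted p below 0.05, 6 called by DESeq2 and 5 by the exact test.

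Between Soy and M + E2 the log2 fold change was 0.29 (−0.99 to 1.58, adjusted p = 0.863) for PHYHIPL and −0.76 (−1.82 to 0.30, adjusted p = 0.533) for ENSSSCG00000048477, where 0.147% of genes were called. For PHYHIPL in M + G against Milk the interval in folds ran from 0.449 to 2.40, so equal levels were not shown. The highest upper end against Milk was 3.89-fold, for ENSSSCG00000048477 in M + E2, while its Sow mean was 23.7 times that of Milk.

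The genes next to PHYHIPL by RefSeq did not share its gap. Genes not placed by RefSeq, with ENSSSCG00000048477 among them, could not be included. FAM13C, from 62622895 to 62754404, overlaps 7489 bases at the upper end of PHYHIPL, so that reads there could be given to either gene. FAM13C had 36 to 66 reads in Sow and 38 to 132 in formula libraries, or 6.5 ± 1.33 CPM (SD, n = 3) and 8.35 ± 3.20 CPM (n = 12). BICC1, an RNA-binding protein gene on the other side, had 25.3 ± 3.17 CPM in Sow and 30.6 ± 5.84 in formula libraries. Sow relative to the mean of the 4 formula groups, the log2 fold change was −0.17 for FAM13C (standard error 0.345, adjusted p = 0.757), −0.20 for BICC1 (0.212, adjusted p = 0.539), −0.11 for the transporter gene SLC16A9 (0.420, adjusted p = 0.878), −0.27 for CCDC6 (0.189, adjusted p = 0.348) and −0.27 for RASGEF1A (0.376, adjusted p = 0.679). FXYD4, with at most 5 reads in a library, was not tested. In this contrast edgeR's quasi-likelihood test called 0.0704% of genes.

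The closest relative, PHYHIP, lies on the same chromosome from 6494395 to 6506747 and had 0 to 2 reads in Sow and 0 to 4 in formula libraries. It was too low to be tested. PHYH (ENSSSCG00000039244, chromosome 10 from 48404298 to 48423978), the hydroxylase itself, was abundant in every library. It had 439, 657 and 496 CPM in Sow unnumbered, Sow 2 and Sow 3, a mean of 531 ± 113 (SD, n = 3). Milk had 286 ± 155 CPM (n = 3), Soy 233 ± 87.2, M + G 206 ± 77.2 and M + E2 132 ± 15.8. Sow and formula overlapped for this gene, since Milk 1 reached 451 CPM.

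Sow relative to the mean of the 4 formula groups, the fitted log2 fold change of PHYH was 1.22 (0.334, adjusted p = 0.0791), which was not called. With all 3 Sow libraries it was 1.36 (0.281, adjusted p = 0.00586), which was called. By edgeR's quasi-likelihood test the call for PHYH thus changed when Sow 2 was included. The share of all genes called rose from 0.0704% to 10.1% by the same step. Between M + E2 and Milk, PHYH had a log2 fold change of −1.15 (0.399, unadjusted p = 0.0126, adjusted p = 0.211). The M + E2 group had the lowest mean of the 5 for PHYH. It also had the lowest for PHYHIPL, but its mean was above that of Soy without M + E2 2 (1.92 CPM) or without M + E2 3 (1.76 CPM), and for ENSSSCG00000048477 it was the highest formula group.

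Of the 13 genes listed for the alpha-oxidation of phytanic acid and the PHYHIP family, 10 could be tested, and 9 of these had a positive log2 fold change in Sow (median 0.42, against −0.01 over all genes). None was called by edgeR's quasi-likelihood test, which called 0.0704% of all genes, so no call was likely in a list of 10. DESeq2 called 1, where it called 404 of all genes (3.06% of those it gave an adjusted p). By unadjusted p-values below 0.05, 5 genes stood higher and 0 lower in Sow, where 16.4% of all genes were higher and 11.7% lower by this measure. With all 3 Sow libraries 5 genes were higher at an adjusted p of 0.05 or less, as were 20.5% of all genes. Of these 5 genes, 1 was also past 2-fold and so called, and 10.1% of all genes were called in either direction.

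These 5 genes were PHYH, HSD17B4, SCP2, ABCD3 and HACL1. HSD17B4, the bifunctional enzyme of branched-chain beta-oxidation, averaged 2399 ± 453 CPM over the 3 Sow libraries and 1409 ± 348 over the 12 formula libraries (SD), with a log2 fold change of 0.68 (adjusted p = 0.0947), or 0.79 with all Sow libraries (adjusted p = 0.00796). ABCD3, a transporter of the peroxisomal membrane, had 66.7 ± 12.9 CPM in Sow and 45.8 ± 4.38 in formula libraries, with 0.42 (adjusted p = 0.0796) and 0.54 (adjusted p = 0.00575). SCP2, a carrier and thiolase, had 0.62 (adjusted p = 0.110) and 0.89 (adjusted p = 0.00796), and HACL1, the lyase that removes the carbon, 0.45 (adjusted p = 0.145) and 0.88 (adjusted p = 0.00868). HSD17B4 and ABCD3 were the 2 of the 10 tested genes with every Sow library above all formula libraries, beside 7.72% of all genes. Adjusted p-values here are from edgeR's quasi-likelihood test.

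The other peroxisomal lists had lower median log2 fold changes, and the difference between lists was not tested. Of 10 tested genes of straight-chain beta-oxidation 6 had a positive log2 fold change (median 0.16). None was called (0.0704% of all genes), while DESeq2 called 1 (3.06% of all genes). At an unadjusted p below 0.05 the 2 higher genes were CROT, the carnitine octanoyltransferase, with 1.11 (standard error 0.269, adjusted p = 0.0713), and ABCD2, a transporter of very long chains, with 1.04 (0.346, adjusted p = 0.0963). Both were called with all 3 Sow libraries, as were 10.1% of all genes. Of 10 tested genes of peroxisome biogenesis 7 were positive (median 0.17) and 0 were called, also by DESeq2, beside the same shares of all genes. At an unadjusted p below 0.05, 3 of them were higher and 1 lower. By this measure 16.4% of all genes were higher and 11.7% lower, which is the background for both lists.

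**Figure D5:**
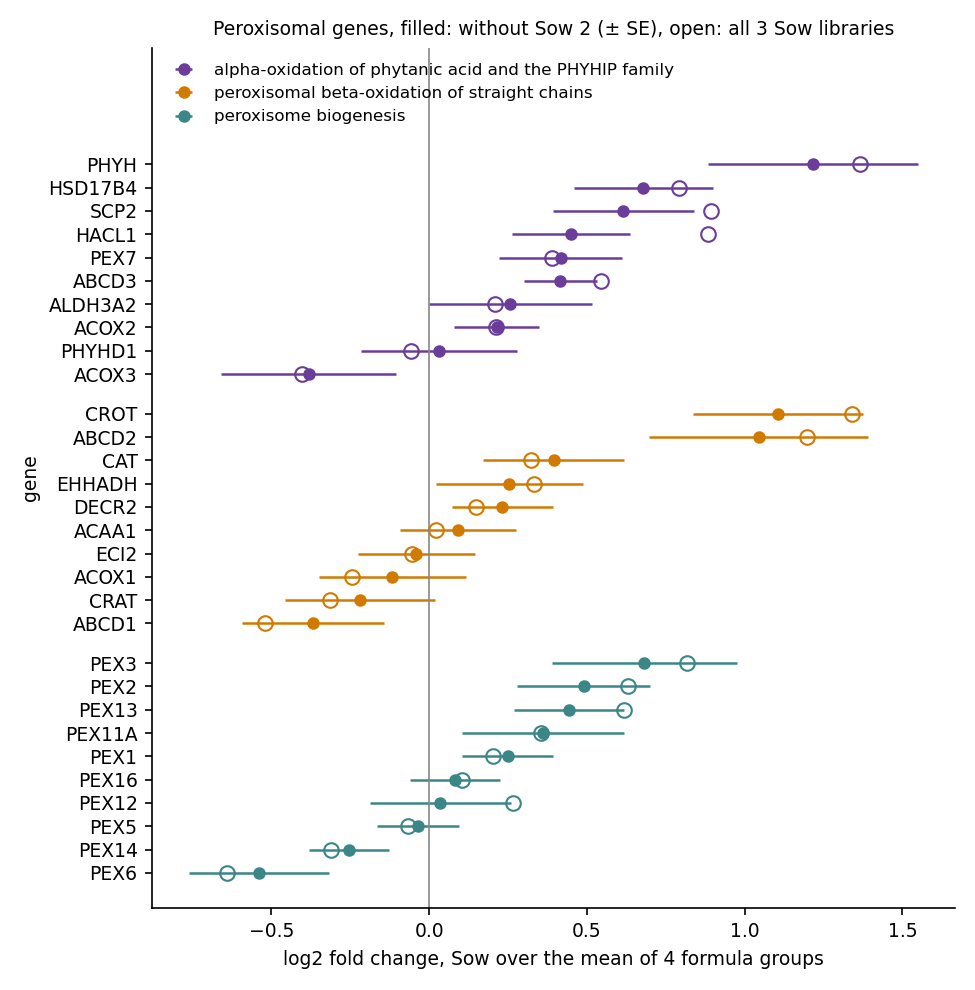
Log2 fold change of Sow over the mean of the 4 formula groups for 30 tested peroxisomal genes, as filled points with standard errors (without Sow 2) and open points (all 3 Sow libraries). PHYH (1.22) leads the alpha-oxidation list, in which 9 of 10 filled points lie above 0, and CROT (1.11) and ABCD2 (1.04) lead the next.

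The genes whose levels followed PHYHIPL most closely over the 15 libraries were PCDH18, a protocadherin (r = 0.899), PDLIM3, a protein of the muscle cytoskeleton (0.897), RFC5, a clamp loader subunit of DNA replication (0.895), WDR35, a protein of cilia (0.887), and PDS5A, a cohesin regulator (0.886). For ENSSSCG00000048477 they were RFC5 (0.949), RAD9B (0.936), HENMT1, a methyltransferase of small germline RNAs (0.931), KLHL8 (0.916) and S100PBP (0.911). All are Pearson correlations of log2 CPM, without a test. The other member ranked ninth of 15327 genes by likeness to PHYHIPL, and PHYHIPL ranked at place 35 by likeness to ENSSSCG00000048477. Both were chosen by the same difference between Sow and formula, so these ranks follow in part from the choice. Over the 12 formula libraries alone their r was −0.447.

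None of these genes had a comparable change in size. The ratio of the Sow mean to the formula mean was 2.56 for PDLIM3 (51.6 and 20.2 CPM), 2.44 for HENMT1 (7.28 and 2.99 CPM) and 1.51 for RFC5 (23.1 and 15.3 CPM). Within the 12 formula libraries r with PHYHIPL was 0.115 to 0.318 for its 5 genes, and r with ENSSSCG00000048477 was 0.602 to 0.832 for its own.

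Since PHYHIPL is known from brain, markers of nerve and of the other cell types of testis were followed. The 14 counted neuronal and neuroendocrine markers summed to 426 to 542 CPM in Sow and 305 to 729 in formula libraries, most of it CHGA. TH and SCG2 had at most 3 reads in every library. STMN2 was the 1 marker of this list at an unadjusted p below 0.05, with 3.91 CPM in Sow and 2.03 in formula libraries (adjusted p = 0.104, edgeR's quasi-likelihood test). The summed level of the list overlapped between Sow and formula. Since CHGA averaged 462 CPM in Sow and 468 in formula libraries, this sum says little of the other markers. Of the 9 tested markers 5 had a positive log2 fold change in Sow (median 0.07).

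The 5 counted Schwann cell markers summed to 504 to 801 CPM in Sow and 260 to 503 in formula libraries, so that the groups only just did not overlap. ERBB3, which epithelia also express, made up most of this sum (589 and 304 CPM on average), while SOX10, the defining marker, averaged 0.778 CPM in Sow and 2.25 CPM in formula libraries. The 5 endothelial markers summed to 239 to 377 CPM in Sow and 380 to 1123 in formula libraries, also without overlap. Of single genes, 7.72% had every Sow library above all formula libraries and 6.32% had every Sow library below them. The 5 smooth muscle and myoid markers summed to 179 to 412 CPM in Sow and 333 to 3306 in formula libraries. No marker was called in Sow against formula by edgeR's quasi-likelihood test, which called 0.0704% of all genes. By unadjusted p-values below 0.05, 1 neuronal, 1 Schwann cell and 2 germ cell markers were higher, and 2 Schwann cell, 2 myoid, 3 endothelial and 2 erythroid markers lower, beside 16.4% and 11.7% of all genes. With all 3 Sow libraries 2 Schwann cell, 3 endothelial, 2 myoid and 2 erythroid markers were called, all lower in Sow. The 1 germ cell marker called, MAEL, was higher in Sow. Of all genes, 10.1% were called in either direction. Summed levels of Leydig, Sertoli and germ cell, macrophage, T cell, epithelial, erythroid, adipocyte and adrenal markers overlapped between Sow and formula. The germ cell sum was mostly KIT (126 CPM in Sow and 151 in formula libraries on average), so its overlap says little of the other markers. MAEL averaged 13.2 and 6.24 CPM and DDX4 8.98 and 4.99 CPM, and 4 of the 5 tested germ cell markers had a positive log2 fold change. What part such differences had in the levels of PHYHIPL and ENSSSCG00000048477 was not tested.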

How the data were processed

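Raw counts of reads per gene, without normalization, were deposited. The authors had removed low-quality bases from the short single-end reads and aligned them in the CLC Genomics Workbench. They mapped first to a curated pig gene library and then to the Ensembl genome, and whether the table holds all reads was not determined. Strand was not stated for the counting. Columns left unused numbered 0. The software was edgeR 4.0.16 and DESeq2 1.42.0 under R 4.3.3. Levels are CPM with TMM library sizes, and log2 CPM used a prior count of 1. The filterByExpr filter (minimum count 10) kept 15634 genes in the 14 tested libraries and 15328 in all 15. All 5 groups entered a single quasi-likelihood fit, with p-values adjusted by Benjamini-Hochberg over all genes. The authors used edgeR's exact test, which was an alternative here. Scripts were checked on simulated counts. With 1 library per piglet, p-values measure the spread between piglets. Alternatives were all 3 Sow libraries, each library left out in turn, DESeq2's size factors and Wald test, the exact test, total counts, other filters and the replicate block.

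The genes, the lists and the tests were chosen with earlier results of these data known. Genes named besides PHYHIPL and ENSSSCG00000048477 were the 5 most alike to each, the 5 with the largest gap, PHYH, PHYHIP, the neighbours by RefSeq (1 of the 2 genes matched) and genes of the lists. List genes that were not called are named by their unadjusted p, a choice made after the values were seen. Lists covered 3 peroxisomal pathways and 13 cell types. No block for replicate numbers entered the fit. Deviations of Milk and M + G libraries of the same number had r of 0.233, 0.510 and 0.425. Those of Milk and M + E2 had r from −0.339 to −0.0643. Libraries of different numbers are not set beside these values, so whether the numbers pair libraries cannot be told. No sequence was printed.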

Additional observations from a re-analysis of the deposited data

How the results depend on the processing

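The 10 tests of both genes among formula groups were repeated under the alternative settings, which gave 186 repeated results in all. Of these settings, the exact test and DESeq2 changed several choices together. The lowest adjusted p was 0.324 by any of the tools named, so no alternative brought a call. In 9 of the repeated results the sign of a change near 0 was turned. Among these, the replicate block gave −0.082 for PHYHIPL in M + G against Milk and changed no call. Leaving out 1 formula library at a time gave log2 fold changes in M + G against Milk from −0.44 to 0.47 for PHYHIPL and from −0.66 to 0.15 for ENSSSCG00000048477. In Soy against Milk they ran from −0.52 to 0.18 and from −0.25 to 0.39. In Soy against M + E2 they ran from −0.066 to 1.15 for PHYHIPL. In M + E2 against Milk they ran from −1.37 to −0.12 for PHYHIPL and from 0.64 to 1.15 for ENSSSCG00000048477. At least 10 counts in every library left neither gene to test.

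Mean levels moved by less than the SD between piglets, except ENSSSCG00000048477 in M + E2 with total counts (1.57 CPM), but that SD is large. The mean of PHYHIPL in M + E2 ran from 0.799 to 1.92 CPM with 1 library left out, and the ratio of the Sow mean to it, an alternative added after seeing the data, from 21.6 to 52.0. Scaling by total counts moved the median log2 fold change of all genes in Sow from −0.01 to −0.18. The correlation over formula libraries ran from −0.612 to −0.277 with 1 library left out, the latter without M + E2 2. The number of genes with every Sow library above all formula libraries ran from 1047 to 2174 with 1 library left out, the highest without Sow 3, and was 1401 without Sow 2. Calls in the alpha-oxidation list numbered 0, but 1 with all 15 libraries, 1 with DESeq2, and 3 (PHYH, SCP2 and HACL1, whose values under each choice of Sow libraries were added after seeing the data) when Sow 2 replaced either other Sow library. In the list of straight-chain beta-oxidation they numbered 2 with all 15 libraries, 2 with either replacement and 1 with DESeq2. Of all genes, 0.0704% were called in the main fit, 10.1% with all 15 libraries and 3.06% with DESeq2. The share of all genes called with either replacement was not determined, so those counts stand without a background. The cause was not tested. The 3 to 27 reads per formula library limit what could be detected among formula diets.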
